A study of Homo sapiens with 18 samples.

Results

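The comparison set MCF-10A cells that overexpressed the SR protein SRSF4 (SRSF4-OE) against MCF-10A cells that overexpressed the SR protein SRSF9 (SRSF9-OE). It drew on the samples titled with these constructs, 6 of the 18 samples in the series, and all genes measured were considered. MCF-10A is an immortalised, non-tumorigenic human mammary epithelial line. In both groups the cells stably carried a retroviral construct with the factor's coding sequence and had spent 8 days in Matrigel, a basement membrane gel, before RNA was taken for stranded mRNA sequencing. The empty-vector group (PWZL, called Control) stands beside the results as a reference level and is in neither arm of the contrast, but its libraries entered the model, where they add to the estimates of the spread and of the label set term described below. The labels name no clone and leave unsaid whether the replicates were grown apart; the p-values below therefore reflect library-to-library spread that could be technical alone. The contrast asks which genes differ in level between cells given one SR protein and cells given another, without reference to the empty vector.

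SR proteins bind exonic sequences of pre-mRNA through RNA recognition motifs and recruit the splicing machinery through a tail rich in arginine and serine (the RS domain). They also act in mRNA export, decay and translation, and many of them limit their own mRNA through alternative exons that trigger nonsense-mediated decay. SRSF4 has a long RS domain and SRSF9 a short one, and the RS tails are phosphorylated by SRPK and CLK kinases. Splicing itself was not analysed here: the data are counts per gene.

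The labels give SRSF4-OE replicates 1 and 2 the same library ID and barcode, and they were treated as 2 lanes of the same library, summed and counted as 1. Their mean chi-square per gene was 4.09, which is above the 1 of sampling noise alone and below the 58.8 and 59.6 of each against replicate 3. The comparison therefore rested on 2 SRSF4-OE libraries (83119075 and 47704939 counts) and 3 SRSF9-OE libraries (42959069 to 54083271 counts), 5 of the 14 libraries in the series. SRSF9-OE replicates differed from each other with mean chi-squares of 65.1 to 116. The summed SRSF4-OE library belongs to the set described by library IDs, and the other 4 libraries to a set described by numbers, so the label set was a term in the model. All 8 basal epithelial markers (KRT5, KRT14, KRT17, TP63, CDH1, CDH3, ITGB4 and LAMB3) were detected, with summed levels of 20900 to 26800 CPM (counts scaled to the library total) in SRSF4-OE and 18600 to 28800 CPM in SRSF9-OE. Milk protein genes summed to 0 CPM in SRSF4-OE and to at most 0.018 CPM in SRSF9-OE, and leukocyte markers to 3.19 to 4.63 CPM and 2.96 to 5.89 CPM. Mitochondrially encoded genes took 8.58% and 8.96% of counts in SRSF4-OE and 6.95% to 10.4% in SRSF9-OE.

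The introduced factors separated the groups in the labelled direction. SRSF4 (ENSG00000116350.16_2) stood at 187 CPM (TMM-normalised, as are all levels below) in SRSF4-OE replicates 1-2 and 168 in replicate 3. In SRSF9-OE it stood at 86.8, 96.7 and 103 CPM in replicates 1, 2 and 3, and in Control at 95.5 and 71.4 CPM. Both SRSF4-OE libraries lay above each of the other 12 libraries, whose highest value was 106 CPM in TRA2B-OE replicates 1-2. The means were 177 ± 13.9 CPM (SD, n = 2) and 95.5 ± 8.11 CPM (SD, n = 3), a ratio of 1.86.

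SRSF9 (ENSG00000111786.8_1) stood at 105 and 110 CPM in SRSF4-OE, near the 95.4 and 92.4 CPM of Control. In SRSF9-OE replicates 1, 2 and 3 it stood at 359, 629 and 839 CPM. The SRSF9-OE libraries were all above the SRSF4-OE libraries, but they spread over a wide range: the mean was 609 ± 241 CPM (SD, n = 3), 5.66 times the SRSF4-OE mean. The 2 factors were thus raised to different degrees, SRSF4 by less than SRSF9. Reads of the construct and of the endogenous gene cannot be told apart in these counts.

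**Figure D1:**
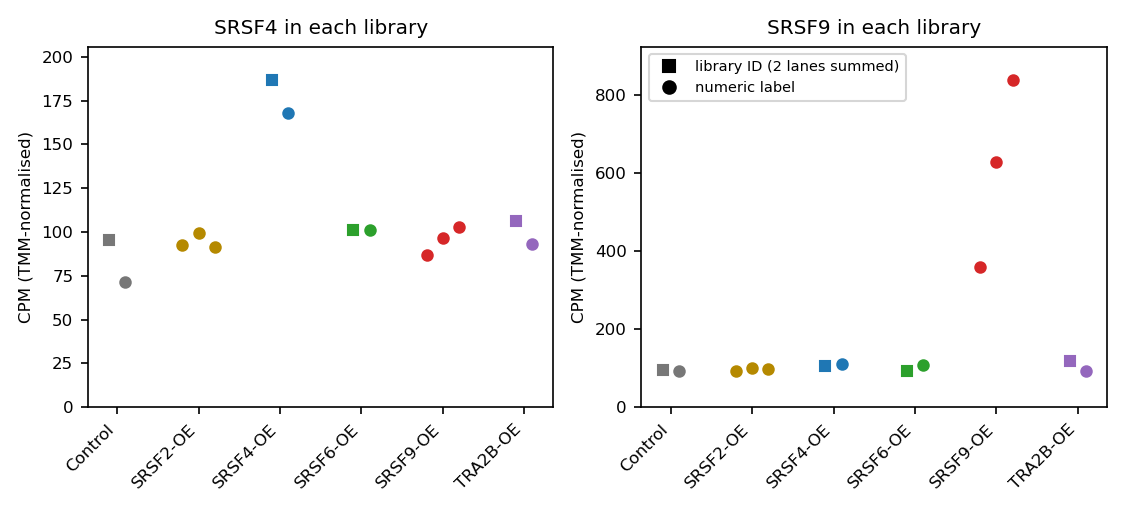
Level of SRSF4 (left) and SRSF9 (right) in each of the 14 libraries, in TMM-normalised CPM on linear axes that start at 0; squares are summed libraries with a library ID and circles are libraries with a numeric label. SRSF4 was at 187 and 168 CPM in SRSF4-OE and at most 106 CPM elsewhere, and SRSF9 was at 359 to 839 CPM in SRSF9-OE.

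Across the 21326 genes that passed the filter on low counts, edgeR's quasi-likelihood test called no gene in this contrast at a Benjamini-Hochberg adjusted p under 0.05: 0 higher and 0 lower in SRSF4-OE (0% in each direction). At an unadjusted p under 0.05 it listed 765 genes, fewer than the 1066 expected by chance. Of these, 293 were higher and 472 lower in SRSF4-OE. DESeq2 with the same terms called 2 genes higher (0.00938%) and 20 genes lower (0.0938%) in SRSF4-OE, and limma-voom called 0. On counts simulated for this contrast DESeq2 made 54 false calls, more than its 22 calls here, and edgeR made 2. A gene called by DESeq2 alone is therefore weakly supported. There edgeR recovered 60.6% of genes changed 4-fold and 5.97% of those changed 2-fold, so many changed genes went uncalled. The simulation used edgeR's estimates of the spread and gave SRSF4-OE and SRSF9-OE no label set difference, so its false calls may not match those here. edgeR on the 5 compared libraries alone, with no label set term and their own estimate of the spread, called 5 of 19611 genes higher (0.0255%) and 40 lower (0.204%). The DESeq2 and 5-library calls shared 11 genes, 50.0% of the first set and 24.4% of the second. Each call below is given with its tool, and edgeR on all 14 libraries called none of them.

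**Figure D2:**
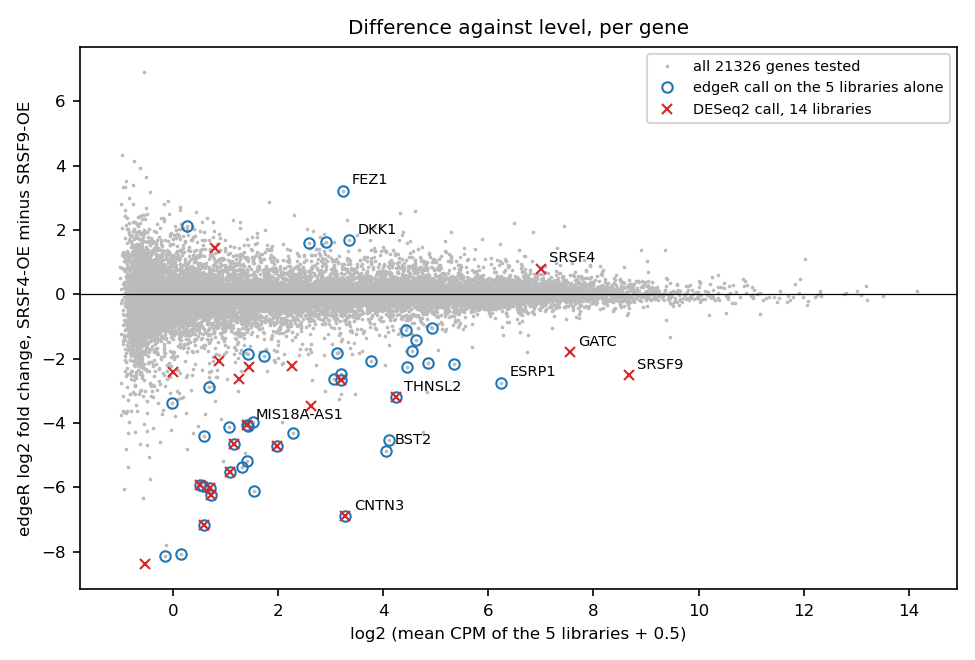
Log2 fold change (SRSF4-OE minus SRSF9-OE, edgeR on 14 libraries) against level (log2 of mean CPM + 0.5 over the 5 libraries) for all 21326 genes tested. Crosses mark the 22 DESeq2 calls and rings the 45 calls of edgeR on the 5 libraries alone; most marked genes lie below 0, and SRSF4, SRSF9 and GATC are the called genes at the right.

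The log2 fold change of SRSF4 was 0.80 ± 0.14 (standard error; SRSF4-OE minus SRSF9-OE here and below). Its unadjusted edgeR p was 2e-04, its adjusted p was 0.70 with edgeR and 0.00072 with DESeq2. For SRSF9 the log2 fold change was -2.51 ± 0.33, with an adjusted p of 0.24 by edgeR, the smallest value in that fit, and 2.3e-09 by DESeq2. The other gene that DESeq2 called higher in SRSF4-OE was GPR63, an orphan G protein-coupled receptor, at 2.30 and 1.81 CPM against 0.701, 0.836 and 0.575 CPM (DESeq2 adjusted p = 0.044), a level below the minimum set for named genes.

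Genes tied to SRSF9 by position or sequence were among the DESeq2 calls. GATC, a subunit of the mitochondrial glutamyl-tRNA amidotransferase whose annotated gene overlaps SRSF9, stood at 70 and 76.7 CPM in SRSF4-OE and at 158, 261 and 368 CPM in SRSF9-OE (log2 fold change -1.81 ± 0.31, DESeq2 adjusted p = 0.00021). Its Control level was 76.0 and 69.7 CPM, and its order over the SRSF9-OE replicates was that of SRSF9. SRSF9P1, a processed pseudogene of SRSF9, stood at 0.0451 and 0.0417 CPM in SRSF4-OE and at 1.46, 3.84 and 2.76 CPM in SRSF9-OE (DESeq2 adjusted p = 0.00021). The mean level of SRSF9P1 was below the minimum set for named genes. These features can take reads from SRSF9 transcripts, and how far they did was not tested.

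MIS18A-AS1, annotated as antisense to the centromere factor gene MIS18A, was also a DESeq2 call, at a mean level below the minimum set for named genes. It stood at 0.305 and 0.271 CPM in SRSF4-OE and at 2.14, 3.32 and 4.77 CPM in SRSF9-OE, in the replicate order of SRSF9. The other 9 libraries reached at most 0.448 CPM, in SRSF6-OE replicates 1-2, so it was high in the SRSF9-OE libraries and low in the rest (DESeq2 adjusted p = 1.2e-07). Its reads may not have been told apart from those of other genes.

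Among the remaining calls were genes near Control level in SRSF9-OE and far lower in SRSF4-OE. THNSL2, a threonine synthase-like protein, stood at 3.37 and 2.88 CPM in SRSF4-OE and at 28.9, 25.4 and 31.2 CPM in SRSF9-OE, with 33.9 and 34.6 CPM in Control. No SRSF4-OE library came near an SRSF9-OE library, and both lay below every other library of the series, of which SRSF6-OE replicate 3 was lowest at 8.89 CPM. The log2 fold change was -3.2 ± 0.45 (DESeq2 adjusted p = 2.3e-09; edgeR on the 5 libraries 0.0036).

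CNTN3, a contactin of the immunoglobulin superfamily that acts in cell adhesion, stood at 0.327 and 0.0208 CPM in SRSF4-OE and at 6.87, 18.5 and 20.4 CPM in SRSF9-OE. Control stood within the SRSF9-OE range, at 8.94 and 11 CPM. The SRSF4-OE libraries held 29 counts and 1 count of this gene against 382 to 928 counts in each SRSF9-OE library, and the ratio between the SRSF4-OE libraries was wider than any within SRSF9-OE. The log2 fold change was -6.90 ± 1.80 (DESeq2 adjusted p = 0.0081; edgeR on the 5 libraries 0.041), and it was -9.35 without SRSF4-OE replicates 1-2.

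BST2, the interferon-inducible membrane protein tetherin that holds budding viruses at the cell surface, stood at 1.51 and 0.417 CPM in SRSF4-OE and at 25.6, 20.2 and 32.8 CPM in SRSF9-OE. Control stood at 28.2 and 43.4 CPM. The log2 fold change was -4.86 ± 1.74; edgeR on the 5 libraries called the gene (adjusted p = 0.022), and DESeq2 on 14 libraries did not (0.22). FUCA2, a secreted fucosidase, stood at 13.2 and 10.6 CPM against 50.8, 62.5 and 64.2 CPM, again without overlap (edgeR on the 5 libraries, adjusted p = 0.0073; it was named after its values were seen).

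The sequences just upstream of CNTN3, BST2 and FUCA2 are shown because these genes were low together in both SRSF4-OE libraries and because their promoters differ in base composition. They are the 250 bases before the RefSeq start of each gene on GRCh38.p14, all on the minus strand: chr3:74614660-74614909, chr19:17405631-17405880 and chr6:143511721-143511970. Capitals mark CG dinucleotides, the sites of DNA methylation.
CNTN3: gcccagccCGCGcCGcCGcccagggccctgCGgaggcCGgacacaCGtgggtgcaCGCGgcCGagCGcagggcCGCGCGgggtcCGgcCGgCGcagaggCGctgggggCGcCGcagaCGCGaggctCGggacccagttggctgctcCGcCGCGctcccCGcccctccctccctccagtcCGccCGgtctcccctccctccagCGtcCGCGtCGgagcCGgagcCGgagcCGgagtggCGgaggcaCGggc
BST2: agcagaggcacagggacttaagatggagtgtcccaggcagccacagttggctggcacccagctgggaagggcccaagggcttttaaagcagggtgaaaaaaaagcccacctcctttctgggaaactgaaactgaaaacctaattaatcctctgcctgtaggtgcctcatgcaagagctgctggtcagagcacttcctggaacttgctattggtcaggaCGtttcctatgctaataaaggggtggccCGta
FUCA2: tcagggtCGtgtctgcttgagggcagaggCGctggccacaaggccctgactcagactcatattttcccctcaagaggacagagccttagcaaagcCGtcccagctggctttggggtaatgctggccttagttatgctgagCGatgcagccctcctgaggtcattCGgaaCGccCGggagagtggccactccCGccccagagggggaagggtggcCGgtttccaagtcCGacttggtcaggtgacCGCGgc
CNTN3 held 38 CG dinucleotides in this window, FUCA2 12 and BST2 2; of 35116 RefSeq promoter entries, 3.28%, 48.5% and 85.3% held as many or more. A promoter entry was matched for 12 of the 20 genes that DESeq2 called lower, with a median of 24 CG dinucleotides, and for 27 of the 40 genes that edgeR called lower on the 5 libraries, with a median of 17, beside a median of 11 over all entries. The full set of entries was not limited to genes that passed the count filter or to a single entry per gene. The called sets were, so these medians are not like for like. SRSF9, GATC and SRSF9P1 are among the 20 DESeq2 genes. These counts describe letters in the window and not binding or methylation, which were not measured.

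Other DESeq2 calls lower in SRSF4-OE had levels of a few CPM. NRSN2, a neurensin of vesicle membranes, stood at 1.78 and 0.459 CPM in SRSF4-OE and at 7.16, 7.12 and 11.8 CPM in SRSF9-OE (log2 fold change -3.46 ± 0.73, adjusted p = 0.00016). TNS1, the tensin that links integrins to actin, stood at 1.35 and 1.40 CPM against 14.9, 8.34 and 17.1 CPM (log2 fold change -2.66 ± 0.74, adjusted p = 0.041). The Control libraries differed for TNS1, with 3.69 CPM in replicates 1-2 and 18.9 CPM in replicate 3. N4BP2L1 stood at 3.42 and 0.834 CPM against 5.41, 5.35 and 6.47 CPM (adjusted p = 0.0091, and 0.41 with edgeR on the 5 libraries).

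MT1L, a transcribed metallothionein pseudogene that can share reads with its paralogs, stood at 0.0902 and 0.250 CPM against 2.88, 6.29 and 7.69 CPM (DESeq2 adjusted p = 0.00027). Signalling genes at the limit of detection were also among the calls of both DESeq2 and the 5-library fit, and were named after their values were seen. WNT3A, a Wnt ligand, had 1 and 0 counts in the SRSF4-OE libraries and 100, 68 and 78 counts in the SRSF9-OE libraries. DLL3, an inhibitory Notch ligand, had 1 count in each SRSF4-OE library and 68, 72 and 82 counts in SRSF9-OE. Both genes were close to absent from SRSF4-OE at this depth.

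ESRP1, the epithelial splicing regulator that directs epithelial isoforms of adhesion and growth factor receptor genes, had the smallest adjusted p of the 5-library edgeR fit. It stood at 12.5 and 11.2 CPM in SRSF4-OE and at 102, 120 and 131 CPM in SRSF9-OE, with 68.9 and 131 CPM in Control. The means were 11.8 ± 0.915 CPM (SD, n = 2) and 118 ± 14.6 CPM (SD, n = 3), a ratio of 9.93. The log2 fold change over 14 libraries was -2.75 ± 0.89, and it was called by edgeR on the 5 libraries (adjusted p = 0.0021) but not by DESeq2 on 14 (0.092). Its paralog ESRP2 showed no such gap, at 61.0 and 87.5 CPM against 83.7, 54.0 and 60.6 CPM.

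CCND2 and CCL28 were 2 further 5-library calls. CCND2, the cyclin D2 that drives entry into the cell cycle, stood at 6.21 and 8.23 CPM in SRSF4-OE and at 31.6, 37.7 and 31.2 CPM in SRSF9-OE (edgeR on the 5 libraries, adjusted p = 0.011; DESeq2 0.68). CCL28, an epithelial chemokine, stood at 0.203 and 0.208 CPM against 4.05, 3.2 and 4.15 CPM (0.0066; DESeq2 0.93). In both of these the replicates of a group lay close together and the groups did not overlap.

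The same genes varied among replicates elsewhere in the series, and the 14-library model estimates its spread from all groups. ESRP1 was at 100 CPM in SRSF2-OE replicate 1 and at 12.1 and 19.3 CPM in replicates 2 and 3. BST2 was at 38.7, 0.683 and 1.19 CPM in those libraries, FUCA2 at 65.3, 2.30 and 2.09 CPM, and CNTN3 at 3.94, 0.192 and 0.045 CPM. SRSF2-OE replicates 2 and 3 thus had values near or below the SRSF4-OE range, and replicate 1 did not. When SRSF2-OE replicate 1 and TRA2B-OE replicate 3 were left out of the model, edgeR called 14 genes lower in SRSF4-OE, BST2, FUCA2 and THNSL2 among them. The part of either left-out library in these calls was not tested. All 14 were among the 45 genes of the 5-library fit, but both fits hold the same 5 compared libraries, so the overlap is no separate support.

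**Figure D3:**
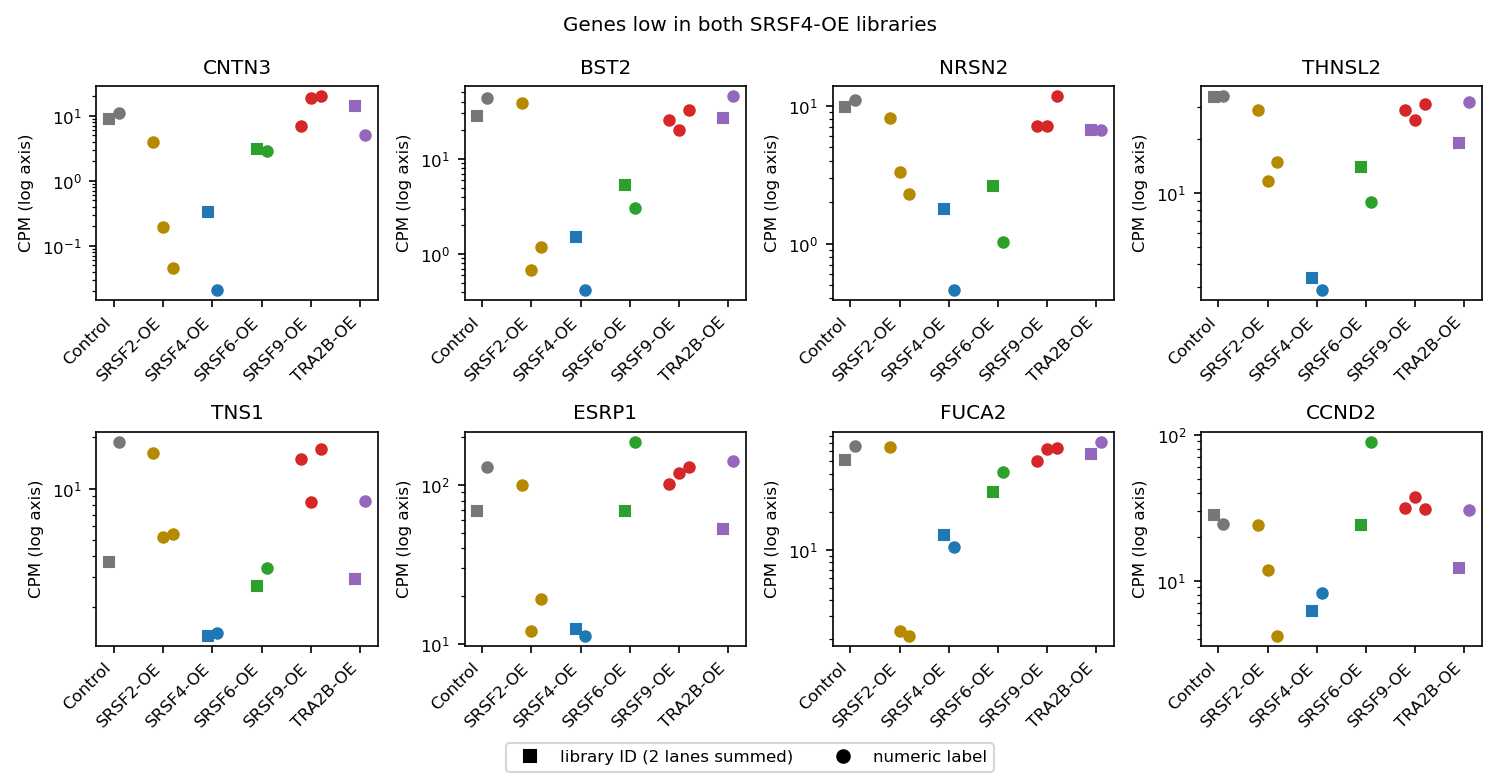
Level of 8 genes that were low in both SRSF4-OE libraries, in TMM-normalised CPM on log axes that differ between panels, in all 14 libraries; squares are summed libraries with a library ID and circles are libraries with a numeric label. ESRP1 was at 12.5 and 11.2 CPM in SRSF4-OE and at 102 to 131 CPM in SRSF9-OE, and SRSF2-OE was split between its replicates for several genes.

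Besides SRSF4 and GPR63, the DESeq2 calls, 5 genes were called higher in SRSF4-OE by edgeR on the 5 libraries; they were named after their values were seen. DKK1, a secreted inhibitor of Wnt signalling, stood at 19.1 and 19.0 CPM in SRSF4-OE and at 3.54, 3.06 and 3.79 CPM in SRSF9-OE (adjusted p = 0.0066). The 2 Control libraries stood apart, at 20.8 and 2.51 CPM, and over 14 libraries the log2 fold change was 1.68 ± 0.90 (DESeq2 adjusted p = 1). FEZ1, a kinesin adaptor, stood at 20.1 and 20.6 CPM against 1.87, 1.61 and 0.575 CPM (0.016; DESeq2 0.93 on 14 libraries and 0.0082 on the numeric set alone). FEZ1 was at most 5.90 CPM in the other libraries of the series, in SRSF6-OE replicates 1-2.

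CD1D, which presents lipid antigens, stood at 14.1 and 11.5 CPM in SRSF4-OE against 2.27, 3.92 and 3.16 CPM in SRSF9-OE (edgeR on the 5 libraries, adjusted p = 0.036). BAIAP2L2, a membrane-bending protein of epithelial protrusions, stood at 7.97 and 11.1 CPM against 3.02, 2.98 and 2.59 CPM (0.036). IL7R, the interleukin-7 receptor chain, stood at 1.49 and 1.44 CPM against 0.216, 0.139 and 0.264 CPM (0.036). Control stood below 1 CPM for CD1D (0.619 and 0.589) and IL7R (0.359 and 0.216), so that SRSF4-OE was higher than Control as well as SRSF9-OE.

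Gene lists were described by the sign of the log2 fold change and by whether both SRSF4-OE libraries lay on the same side of all 3 SRSF9-OE libraries. Over all 21326 genes, 9896 had a positive log2 fold change, the median was -0.02, both SRSF4-OE libraries lay above all SRSF9-OE libraries for 2696 genes (12.6%) and below them for 3168 (14.9%). Over 14 libraries edgeR called 0 members of every list, and DESeq2 called SRSF4 and SRSF9 alone among the list members. edgeR on the 5 libraries called 1 member of each of 5 lists, among them ESRP1, CCND2, BST2 and CCL28, all lower in SRSF4-OE. The values that follow are levels and counts, with no test past its threshold for any other list member in the 14-library fits.

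Among the 13 measured genes of the SR family, 9 had a positive log2 fold change, with a median of 0.18. Both SRSF4-OE libraries lay above all SRSF9-OE libraries for 8 of them (61.5%, beside 12.6% of all genes), the introduced SRSF4 included. They lay below for 2 (15.4%, beside 14.9% of all genes), the introduced SRSF9 and SRSF12. SRSF6 stood at 448 and 352 CPM in SRSF4-OE and at 329, 237 and 264 CPM in SRSF9-OE (log2 fold change 0.28 ± 0.21). SRSF1 stood at 203 and 223 CPM against 192, 169 and 166 CPM (0.25 ± 0.19), and TRA2B at 158 and 168 CPM against 140, 128 and 129 CPM (0.23 ± 0.15). These gaps were small beside the rise of the introduced factors. The list median was 0.02 without SRSF4-OE replicate 3, a fit that sets a library with a library ID against numeric ones. This 0.02 depends on the label set term estimated from other groups. With both SRSF4-OE libraries kept and no label set term, the list median was 0.27. The log2 list means were 6.71 (replicates 1-2) and 6.52 (replicate 3) in SRSF4-OE and 6.59, 6.51 and 6.58 in SRSF9-OE. SRSF12 stood at 0.756 and 0.396 CPM against 1.29, 1.33 and 1.65 CPM.

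The 7 measured SR protein kinases had a median of -0.03, and 2 were positive. PRPF4B, which phosphorylates spliceosome proteins, was the single kinase whose groups did not overlap (14.3% above, beside 12.6% of all genes). It stood at 129 and 130 CPM against 114, 110 and 111 CPM. Its log2 fold change was -0.07 without SRSF4-OE replicate 3, where the SRSF4-OE library left in has a library ID. This sign depends on the label set term estimated from other groups. Of 32 hnRNP and other splicing regulators, 21 were positive with a median of 0.05. Among the 32, 9 lay above (28.1%, beside 12.6% of all genes) and 2 below (6.25%, beside 14.9%). HNRNPA2B1, an abundant RNA-binding protein of splicing and RNA transport, stood at 900 and 830 CPM against 604, 530 and 462 CPM (log2 fold change 0.51 ± 0.22, DESeq2 adjusted p = 1). The 2 below were ESRP1 and the muscleblind gene MBNL3, at 30.8 and 23.8 CPM against 37.5, 37.1 and 31.7 CPM. Of 15 nonsense-mediated decay factors 2 lay above (13.3%, near the 12.6% of all genes) and 1 below (6.67%), with a median of 0.05.

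All 30 mitosis genes had a positive log2 fold change, with a median of 1.0. The median was 0.72 with no label set term and on the 5 libraries alone. Both SRSF4-OE libraries lay above all SRSF9-OE libraries for only 3 of the 30 (AURKA, CDK1 and KIF23). This share was below the 12.6% of all genes. AURKA, a spindle kinase, stood at 37.8 and 68.3 CPM in SRSF4-OE and at 34.1, 28.7 and 12 CPM in SRSF9-OE (log2 fold change 1.30 ± 0.48, DESeq2 adjusted p = 0.82). MKI67, the proliferation marker, stood at 76.1 and 160 CPM against 122, 91.9 and 39.2 CPM, so its groups overlapped. The mean over the list, as log2(CPM + 0.5), was 5.15 and 5.99 in SRSF4-OE and 5.51, 5.03 and 3.64 in SRSF9-OE. SRSF9-OE replicate 3 was the low library, and without it the list median was 0.61. In bulk RNA, fewer cells of a type and less RNA per cell cannot be told apart, which holds for dividing cells here.

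All 29 measured DNA replication genes were positive with a median of 0.67, and for 17 of them (58.6%, beside 12.6% of all genes) both SRSF4-OE libraries lay above all SRSF9-OE libraries. PCNA, the sliding clamp of DNA polymerases, stood at 115 and 122 CPM in SRSF4-OE and at 70.9, 64.1 and 38.4 CPM in SRSF9-OE (log2 fold change 0.91 ± 0.42). RRM2, the regulated subunit of ribonucleotide reductase, stood at 47.2 and 89.6 CPM against 41.9, 38.3 and 11.7 CPM (1.44 ± 0.69), and E2F1, a transcription factor of S phase entry, at 8.89 and 11.4 CPM against 4.58, 4.78 and 2.30 CPM (1.42 ± 0.64). No member passed the test: the unadjusted edgeR p of E2F1 was 0.05 and its DESeq2 adjusted p was 1. The list mean, as log2(CPM + 0.5), was 4.56 and 4.96 against 4.43, 4.29 and 3.62, and the list median was 0.34 without SRSF4-OE replicate 3 and 0.47 without SRSF9-OE replicate 3.

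Of the G1 regulators, CCND1 and CCND2 had opposite signs. CCND1, cyclin D1, stood at 250 and 280 CPM in SRSF4-OE and at 157, 158 and 119 CPM in SRSF9-OE (log2 fold change 0.97 ± 0.50, DESeq2 adjusted p = 1), whereas CCND2 was lower in SRSF4-OE as given above. Control stood at 42.4 and 119 CPM for CCND1. The 15 measured members had a median of 0.20 (0.33 with no Control library in the model). Of them 5 lay above (33.3%, beside 12.6% of all genes) and 2 below (13.3%, beside 14.9%).

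The cornified envelope and kallikrein list, genes of keratinocyte terminal differentiation, had a median of 1.14 with 25 of 30 members positive. It was the largest list median in the 14-library model, but on the 5 libraries alone it was 0.68, below the 0.72 of the mitosis list. The SRSF4-OE libraries disagreed for these genes. PI3, the elastase inhibitor elafin, stood at 75.2 and 480 CPM in SRSF4-OE and at 101, 154 and 59.6 CPM in SRSF9-OE, and KLK10, a kallikrein, at 0.587 and 17.3 CPM against 3.56, 4.62 and 0.887 CPM. The list mean was 2.01 and 3.45 in SRSF4-OE and 2.62, 2.82 and 1.86 in SRSF9-OE as log2(CPM + 0.5). The groups overlapped for all but 2 members, both above (6.67%, beside 12.6% of all genes). Without SRSF4-OE replicate 3 the list median was 0.68. The Control libraries were also split by label set, at 0.78 and 2.21. Of the 9 basal and stress keratins 6 were positive, with 1 above and 1 below (11.1% each, beside 12.6% and 14.9% of all genes). Their median of 0.47 was 0.17 without SRSF4-OE replicate 3 and 0.84 without SRSF9-OE replicate 1. KRT14, a basal keratin, lay above, at 4980 and 6700 CPM against 4670, 2750 and 1710 CPM (log2 fold change 1.08 ± 0.57). KRT15, another basal keratin, lay below, at 594 and 306 CPM against 876, 691 and 868 CPM (-0.81 ± 1.16, and 0.15 without SRSF4-OE replicate 3). The 0.15 depends on the label set term, as the SRSF4-OE library left in has a library ID.

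**Figure D4:**
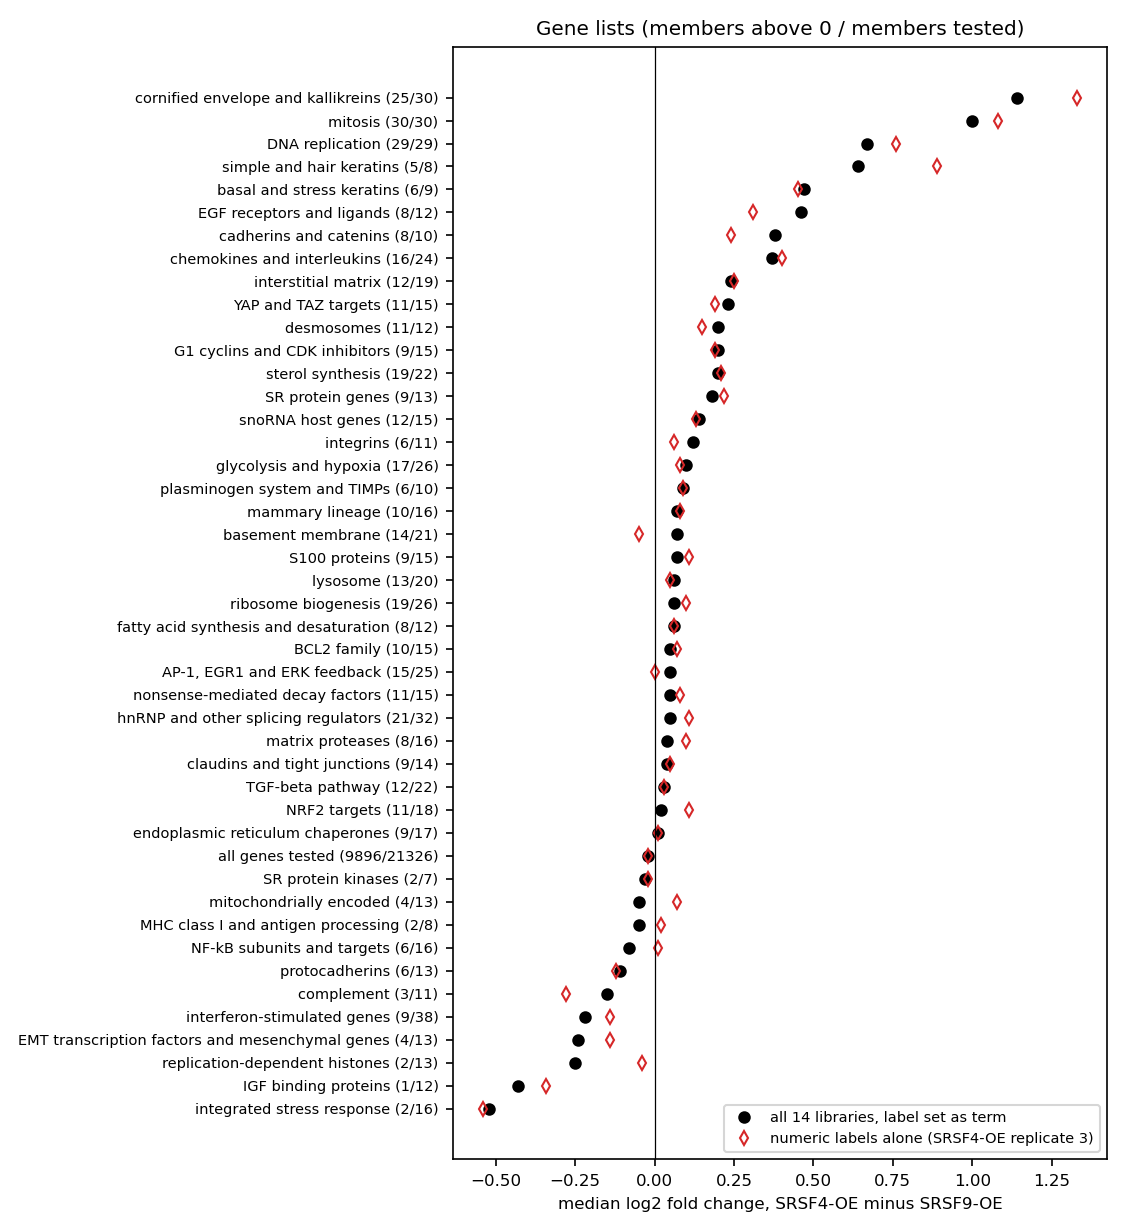
Median log2 fold change (SRSF4-OE minus SRSF9-OE, edgeR) of each gene list and of all genes tested, with the number of members above 0 and the number tested; filled circles are the 14-library model and open diamonds the libraries with numeric labels alone. The lists at the top are cornified envelope (1.14), mitosis (1.0) and DNA replication (0.67), and the lowest is the integrated stress response (-0.52).

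The integrated stress response list, targets of ATF4 and related factors, had 2 of 16 members positive and a median of -0.52, with 6 members below (37.5%, beside 14.9% of all genes) and 1 above. DDIT3, the stress transcription factor CHOP, stood at 6.84 and 6.63 CPM in SRSF4-OE and at 10.2, 10.8 and 13.8 CPM in SRSF9-OE (log2 fold change -0.66 ± 0.30). PSAT1, an enzyme of serine synthesis, stood at 64.3 and 70.1 CPM against 72.5, 142 and 192 CPM, and ASNS, asparagine synthetase, at 19.4 and 28.9 CPM against 17.1, 60.3 and 86.0 CPM. The SRSF9-OE libraries spread widely, with list means of 4.86, 5.48 and 6.18 as log2(CPM + 0.5) against 4.79 and 5.05 in SRSF4-OE. Without SRSF9-OE replicate 3 the list median was -0.09, and without SRSF4-OE replicate 3 it was -0.31. SRSF9-OE replicate 3 also had the highest SRSF9 level and the lowest mitosis mean of its group, and their part in the stress gene levels was not tested.

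**Figure D5:**
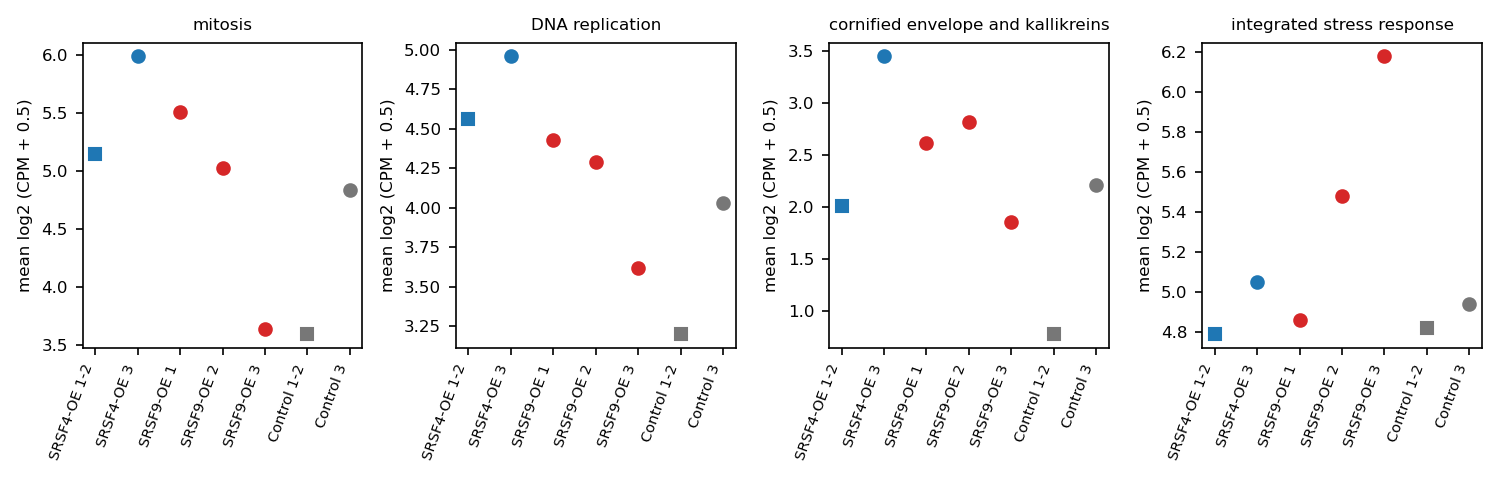
Mean log2(CPM + 0.5) over the members of 4 gene lists in each SRSF4-OE, SRSF9-OE and Control library, on axes that do not start at 0; squares are summed libraries with a library ID and circles libraries with a numeric label. SRSF9-OE replicate 3 had the lowest mitosis mean of the 5 compared libraries (3.64) and the highest stress mean (6.18), and the SRSF4-OE libraries differed by label set in the cornified list (2.01 and 3.45).

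Interferon-stimulated genes had mostly negative log2 fold changes: 9 of 38 measured members were positive, the median was -0.22, and 12 lay below (31.6%, beside 14.9% of all genes) and 2 above. The median was -0.11 without SRSF4-OE replicates 1-2 and -0.34 without SRSF4-OE replicate 3. BST2 held the largest difference. OAS2, a sensor of double-stranded RNA, stood at 2.54 and 1.52 CPM against 6.56, 4.54 and 8.68 CPM (log2 fold change -1.89 ± 0.67, DESeq2 adjusted p = 0.45). For ISG15, a ubiquitin-like protein of the response, the groups overlapped, at 2.22 and 1.81 CPM against 2.19, 1.65 and 2.68 CPM.

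Of 24 measured chemokine and interleukin genes, 16 were positive with a median of 0.37. Among the 24, 10 lay above (41.7%, beside 12.6% of all genes) and 3 below (12.5%, beside 14.9%). CXCL1, a neutrophil chemokine, stood at 40.8 and 17.8 CPM in SRSF4-OE against 3.78, 5.27 and 6.98 CPM in SRSF9-OE, and CXCL8 at 16.8 and 6.77 CPM against 1.37, 2.69 and 4.10 CPM. IL1R2, a decoy receptor for interleukin-1, stood at 26.1 and 13.4 CPM against 4.21, 2.09 and 1.32 CPM (log2 fold change 2.32 ± 1.05), and IL1B at 27.8 and 42.5 CPM against 16, 22.9 and 18.1 CPM. None passed the test over 14 libraries, and without SRSF4-OE replicate 3 the median of the list was -0.20 and the log2 fold change of CXCL1 was -0.24. That fit sets a library with a library ID against numeric ones, so its values depend on the label set term estimated from other groups. With both SRSF4-OE libraries kept, the list median was 0.68 with no label set term and 0.6 on the 5 libraries alone. The log2 list means were 2.96 (replicates 1-2) and 2.69 (replicate 3) in SRSF4-OE and 2.35, 2.26 and 2.39 in SRSF9-OE. Both SRSF4-OE libraries thus lay above SRSF9-OE in list mean, and the part of the label set term in the negative median was not tested.

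The 12 measured IGF binding protein, receptor and adaptor genes had 1 positive member, IRS1, and a median of -0.43, which was -0.25 without SRSF4-OE replicate 3 and -0.27 without SRSF9-OE replicate 1. IGFBP7, a secreted binding protein, stood at 15.1 and 15.0 CPM in SRSF4-OE and at 24.2, 27.8 and 29.4 CPM in SRSF9-OE (log2 fold change -0.77 ± 0.44). IRS1, an adaptor of the insulin and IGF receptors, stood at 33.4 and 38.3 CPM against 16.5, 18.3 and 17.6 CPM (0.70 ± 0.63), and IRS2 at 34.1 and 32.9 CPM against 37, 42.4 and 50.8 CPM. The levels of these paralogous adaptors lay on opposite sides, without overlap in either. Without SRSF4-OE replicate 3 the log2 fold change of IRS1 was -0.27. That fit sets a library with a library ID against numeric ones, so this sign depends on the label set term estimated from other groups. INSR and IGF1R, the receptors, also lay below, by smaller amounts.

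Among 19 interstitial matrix genes, 12 were positive, with 8 above (42.1%, beside 12.6% of all genes) and 2 below (10.5%, beside 14.9%). THBS1, thrombospondin 1, stood at 475 and 949 CPM in SRSF4-OE against 353, 356 and 278 CPM in SRSF9-OE, and COL12A1, a fibril-associated collagen, at 70 and 74.8 CPM against 25.7, 15.1 and 7.12 CPM (log2 fold change 1.94 ± 1.06, DESeq2 adjusted p = 1). SPARC, a collagen-binding matricellular protein, was below, at 4.92 and 0.771 CPM against 15.2, 5.85 and 15.3 CPM. The 7 fibroblast markers summed to 244 to 373 CPM in SRSF4-OE and 166 to 224 CPM in SRSF9-OE; 2 of them reached 1 CPM in any of these libraries and 1 was at 0 in all. The gap in the sum lay in DCN, itself a matrix list member, at 259 and 125 CPM against 90.3, 83.9 and 67.4 CPM before TMM scaling, while COL1A1 overlapped, at 112 and 118 CPM against 133, 81.2 and 98.1 CPM. Their part in the matrix values was not tested.

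Several housekeeping groups had medians between 0.01 and 0.20, small enough for 1 library to move them: that of ribosome biogenesis ranged from -0.01 to 0.13 over the libraries left out. Of 26 ribosome biogenesis genes the median was 0.06, with 7 above (26.9%, beside 12.6% of all genes) and 0 below. NOP56, a core protein of box C/D small nucleolar particles, stood at 299 and 315 CPM against 203, 197 and 213 CPM (log2 fold change 0.52 ± 0.17, DESeq2 adjusted p = 0.62). Of 15 small nucleolar RNA host genes 6 lay above (40.0%, beside 12.6% of all genes) and 0 below, with a median of 0.14. SNHG17 stood at 32.5 and 30.0 CPM against 20.8, 16.3 and 20.4 CPM (0.52 ± 0.22). Of 22 sterol synthesis genes 19 were positive with a median of 0.20, which was 0.10 without SRSF9-OE replicate 1 and 0.06 on the 5 libraries; 3 lay above (13.6%, beside 12.6% of all genes) and 1 below. FDPS, farnesyl diphosphate synthase, stood at 232 and 338 CPM against 181, 213 and 193 CPM (0.71 ± 0.19, DESeq2 adjusted p = 0.28); FDPS overlaps RUSC1-AS1. The 17 endoplasmic reticulum chaperones and the 20 lysosome genes had medians of 0.01 and 0.06.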

How the data were processed

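Gene-level RNA sequencing counts of 18 MCF-10A samples in 6 groups were used. The authors' deposited table holds raw counts per gene for 60252 gene IDs. Per the submitters' processing notes, the upstream tools were STAR 2.5.1b, Trimmomatic 0.36, featureCounts and Subread, with GRCh37 as the build and no order stated. The strand setting, and whether reads or pairs were counted, are not given in the sources used here, so reads may be shared between overlapping or antisense genes and between paralogs or pseudogenes. Names came from GENCODE release 29 by gene ID, with its coordinates used only to list overlapping genes: this named 55910 IDs, while 4342 unnamed IDs held 0.152% to 0.193% of a sample's counts.

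Columns with the same library ID were summed, which gave 14 libraries. The tools were edgeR 4.0.16, DESeq2 1.42.0 and limma 3.58.1 under R 4.3.3. The filter filterByExpr at a minimum count of 10 kept 21326 genes, and TMM gave the scaling. A single quasi-likelihood model in edgeR held all 6 groups, with terms for group and for label set (library ID or number) and 7 residual degrees of freedom; the common biological coefficient of variation was 0.318. SRSF9-OE has no library with a library ID, so that term was estimated from the other groups. A gene was called where its Benjamini-Hochberg adjusted p, over all genes tested, was under 0.05. DESeq2, limma-voom, edgeR on the 5 libraries alone or on the numeric set alone, other scaling, no filter, a replicate block, 18 separate samples and leaving out libraries were alternatives. Adjusted p-values that DESeq2 left as NA stayed so. The scripts were tested on simulated data.

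Named genes were the factors, genes called by edgeR and else by DESeq2 in each direction with a mean of at least 3 CPM and groups that do not overlap, and from each list up to 4 called members and 2 further members without overlap. Other genes were named after their values were seen. The comparison and the lists were chosen with earlier results of these data known. No ID carried the symbols BOP1, CD24 or HIST1H2BG of the lists. Promoter sequences are from RefSeq. Genes withheld for evaluation are not reported here.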

Additional observations from a re-analysis of the deposited data

How the results depend on the processing

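The number of genes called depended on the samples and the tool. The contrast gave 0 genes higher and 0 lower with edgeR on 14 libraries, 5 and 40 with edgeR on the 5 libraries compared, 1 and 7 with the 18 samples as separate replicates, and 2 and 20 with DESeq2. edgeR called 0 and 2 with no filter on low counts, 0 to 2 lower when 1 library of either group was left out (the 2 came without SRSF9-OE replicate 1), and 0 and 14 without SRSF2-OE replicate 1 and TRA2B-OE replicate 3. Among alternatives chosen after seeing the data, DESeq2 on the numeric set gave 2 and 11, DESeq2 on the 5 libraries 196 and 288, and edgeR without Control 0 and 0. DESeq2 size factors in edgeR, limma-voom, no label set term and the numeric set alone gave 0 and 0. SRSF4 passed the threshold at a log2 fold change of 0.81 with 18 samples, 0.82 with DESeq2 and 0.90 with DESeq2 on the 5 libraries. SRSF9 passed at -2.50 with 18 samples, -2.49 with DESeq2, -2.51 with no filter, -2.44 with DESeq2 on the numeric set, -2.49 with DESeq2 on the 5 libraries, and -2.77 without SRSF9-OE replicate 1; leaving out each library in turn gave -2.77 to -2.21 for SRSF9 and 0.74 to 0.85 for SRSF4.

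Deviations of same-numbered libraries of the groups had correlations of 0.06 and -0.13. With 2 SRSF4-OE libraries, 1 of them a sum of replicates 1 and 2, the deviations mirror each other, so these values cannot show or exclude pairing. With the replicate block edgeR called 0 and 0. Of 1512 alternative values for 84 named genes, 13 changed sign, all in genes far from any call: ACACA (0.02 without SRSF4-OE replicate 3, 0.03 without SRSF9-OE replicate 2, in a range of -0.33 to 0.03 over the libraries left out), CDH3 (-0.26 on the 5 libraries with either tool and with no label set term, -0.14 and -0.13 on the numeric set with edgeR and DESeq2, -0.12 without SRSF4-OE replicates 1-2, in a range of -0.12 to 0.49), ELOVL5 (-0.01 with the replicate block), and without SRSF4-OE replicate 3 CXCL1 (-0.24), IRS1 (-0.27), KRT15 (0.15) and PRPF4B (-0.07). With an SRSF9-OE replicate left out, these 4 reached 1.46, 0.76, -0.89 and 0.13, and without SRSF4-OE replicates 1-2 they were 1.77, 1.17, -1.37 and 0.25. The causes were not tested. Every value without SRSF4-OE replicate 3 depends on the label set term, as the SRSF4-OE library left in has a library ID. With 2 libraries against 3, differences within the spread between replicates were not detectable, and a gene not called is not shown to be equal.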
